A study of Mus musculus with 16 samples.

Results

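Livers of mice treated with Dicretin, a co-agonist of the receptors for glucagon-like peptide-1 (GLP1R) and glucagon (GCGR), were compared with livers of mice given saline. The 8 libraries compared, 4 per group, were chosen by their sample titles and come from a series of 16. Dicretin mice and saline mice were all C57BL/6, 22 weeks old, obese from their diet and with steatotic livers, and no genetic change was named for either group. The series also holds 4 mice given Semaglutide, an agonist of GLP1R, and 4 Calorie restricted mice that lost an equivalent amount of weight. The sex, diet composition, dose, length of treatment, fasting state and time of day of collection are not given in the sources used here. Each library was labelled as a separate sample. P-values rest on the spread between samples within groups, estimated per gene over all 16 libraries of the 4 groups.

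Glucagon acts on hepatocytes through GCGR, a receptor that raises cyclic AMP, and the liver answers with glucose release and amino acid breakdown. Hepatocytes also make most plasma proteins, clear drugs and steroids with cytochrome P450 and conjugating enzymes, and keep a daily clock that is set in part by feeding. Genes that respond to cyclic AMP and genes of the urea cycle are well-known answers to glucagon. Lists of both are left aside here in the choice of genes and lists to describe. Their members remain in the numbers of genes that passed, the shares of counts and the promoter searches. Levels are CPM, that is, counts scaled to a common library total, and fold changes are log2 differences of Dicretin minus saline ± SE. A gene passed where edgeR's quasi-likelihood test gave an adjusted p (Benjamini-Hochberg) below 0.05. Values of single libraries are given in the order of animals 14, 23, 64 and 65 for Dicretin and 35, 50, 73 and 78 for saline.

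Libraries held 12228917 to 16659621 counts in Dicretin and 12143829 to 16360741 counts in saline. Alb, the liver's main secreted protein, was the most abundant of the hepatocyte markers, and the 11 hepatocyte markers found summed to between 91240 and 106100 CPM in Dicretin and between 115200 and 138800 CPM in saline. The library kit keeps strand, but whether the counting used it is unknown, so genes that overlap another on the opposite strand have uncertain levels. Among the genes described with values these are Btg3, Dbp, Nr1d1, Pklr, Esrra, Fdft1, Hsd3b2, Hsd3b3, Nr1i3, Pfkfb1, Slc25a25, Sqstm1, Stat5a, Acot11, Manf, Ndufa4l2, Shmt2, Tap1 and Psmb9, whose partners are named genes, and, with partners such as predicted genes, antisense and small RNAs, Aars, Acmsd, Acot3, Akr1b7, Arntl, Bdh1, Bhmt, C1s1, Cerk, Cyp2a4, Dnajb9, Dusp8, Ftl1, Hmgcs1, Irs2, Mlxipl, Mt2, Nlrc5, Notum, Phka2, Psmd9, Slc16a7, Slc7a2, Tap2, Tuba8, Ugt1a1, Ugt1a5, Ugt1a9, Usp18 and Yars.

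The tissue was checked for other cell types before the comparison. Dicretin library 64 stood apart: its 10 pancreatic acinar markers summed to 1603 CPM, against 6.37 to 10.8 CPM in its 3 mates and 13 to 26.9 CPM in saline, with the digestive enzyme genes Ctrb1 at 498.3, Pnlip at 241.1 and Prss2 at 178.5 CPM. Results are therefore also given without this library where that changed them. Cholangiocyte markers summed to 67.1 CPM in saline library 78, against 20.6 to 22.6 CPM in the other saline libraries and 10.4 to 19.9 CPM in Dicretin. Kidney markers were at 0 in all 8 libraries for 8 of 10 members, so the renin gene Ren1, at 8.20 to 20.1 CPM in Dicretin, was not accompanied by other kidney genes.

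By edgeR, 0 of 12 Kupffer cell markers passed (0 also at an unadjusted p under 0.05 and by DESeq2, and 1 with only the 2 groups in the fit), and their sums ranged from 265 to 734 CPM in Dicretin and from 276 to 444 CPM in saline. The Kupffer cell receptor Clec4f stood at 74.2, 54.6, 95.5 and 176.8 CPM in Dicretin, against 45.5, 67.9, 71.9 and 76.0 CPM in saline, and did not pass (adjusted p = 0.231). Of the 12 markers of other macrophages 1 rose and 2 fell, of the 12 sinusoidal endothelial markers 1 rose, and of the 11 stellate cell markers tested 2 fell. With all libraries, the share of markers that passed was below the 36.7% of all genes in each of these lists. It was 8.33% for the endothelial and 18.2% for the stellate markers. The other macrophages had 1 marker lower without any 1 of Dicretin libraries 14 and 64 and saline libraries 35 and 50. The endothelium had 2 higher without Dicretin library 23, 2 lower without Dicretin library 14 and 1 lower without saline library 78. Stellate calls numbered 4 without Dicretin library 14, with upper quartile factors or with the length trend removed, 5 without saline library 78 and 1 without saline library 50. In whole liver, fewer cells of a type and less RNA per cell cannot be told apart, and what these cells contributed to other results was not tested.

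**Figure D1:**
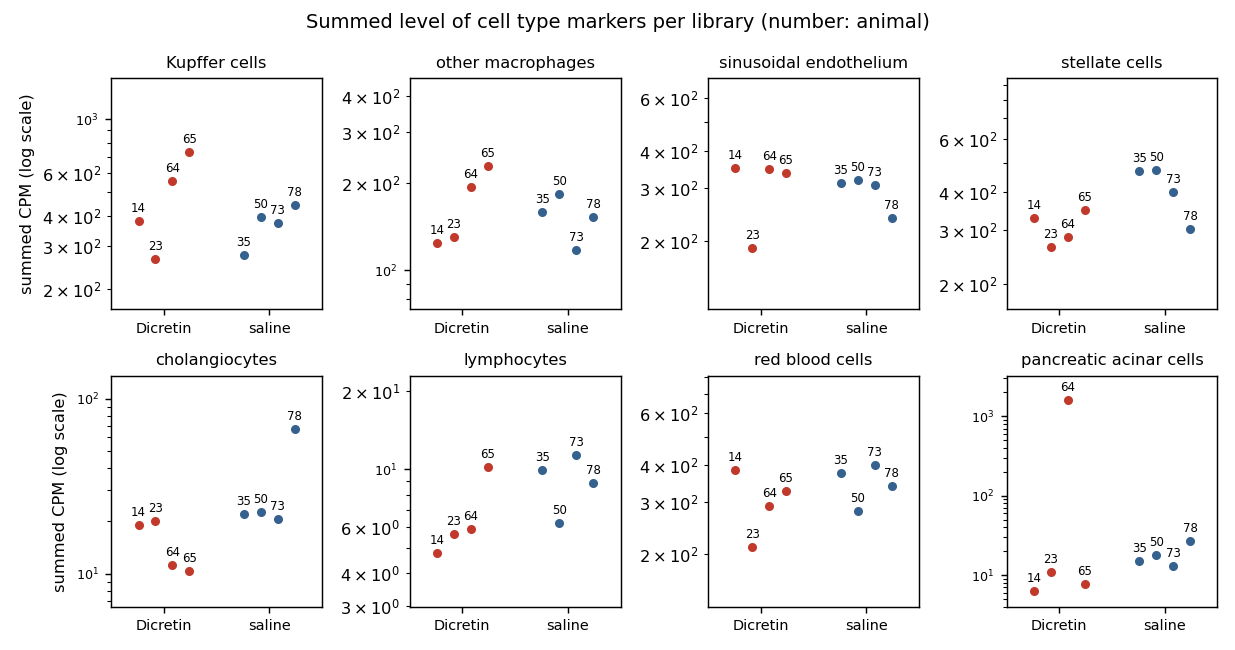
Summed CPM (log scale) of marker genes of 8 cell types, 1 point per library with its animal number, Dicretin left (red) and saline right (blue). Dicretin library 64 stands at 1603 CPM for pancreatic acinar markers, far above all others, and saline library 78 at 67.1 CPM for cholangiocyte markers.

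Dicretin changed a large part of the liver transcriptome. Of 12910 genes tested, 4734 passed, which is 36.7% of them. The genes higher in Dicretin numbered 2255 (17.5%) and those lower numbered 2479 (19.2%). Changes of at least 2-fold were more often decreases, with 738 genes higher (5.72%) and 1321 genes lower (10.2%). This excess lay mainly at low levels, with 29 higher and 191 lower under a mean of 1 CPM and 273 and 606 at 1 to 10 CPM. The counts higher and lower were 325 and 417 at 10 to 100 CPM and 90 and 98 at 100 to 1000 CPM. At 1000 CPM or more they were 21 and 9. In 4421 genes (34.2%) the 4 Dicretin values and the 4 saline values did not overlap. When each library's trend on gene length was removed, an alternative added after seeing the data, 3198 genes were higher and 2270 lower, and the median log2 fold change over all genes moved from -0.01 to 0.10. Without Dicretin library 64, 4493 genes passed, of which 4154 were among the original calls.

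**Figure D2:**
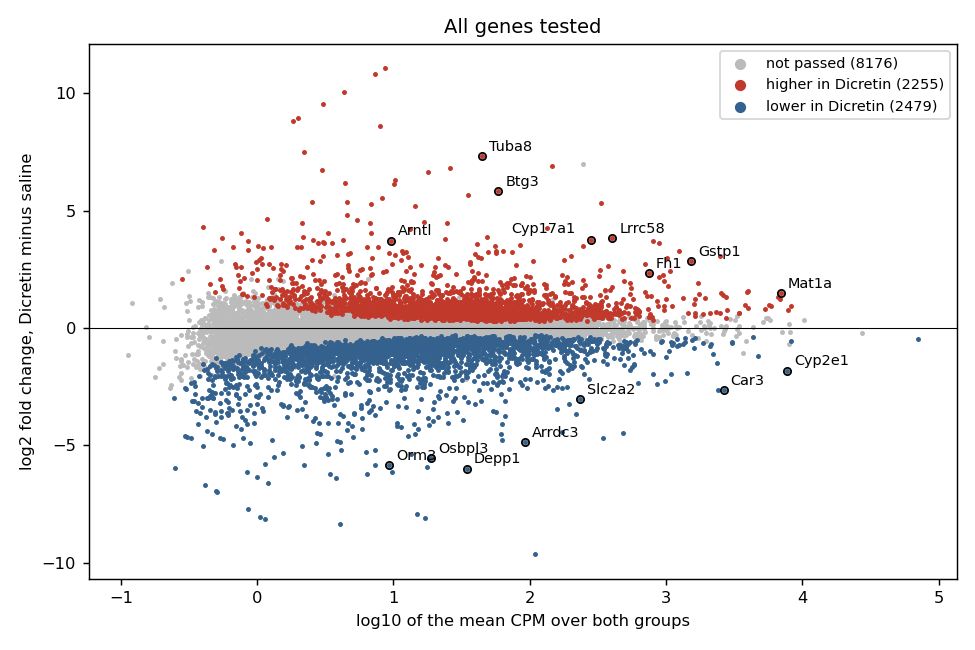
Each point is 1 of 12910 genes, with its log2 fold change (Dicretin minus saline) against the log10 of its mean CPM over both groups. Genes that passed are red where higher in Dicretin (2255) and blue where lower (2479), and several genes described in the text are named.

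The changed genes held much of the RNA. Genes that were higher held 33.2%, 34.9%, 36.4% and 37.8% of all counts in the Dicretin libraries, against 18.8%, 18.1%, 18.4% and 19.6% in the saline libraries. Genes that were lower held 19.2%, 16.7%, 17.0% and 14.9% in Dicretin and 31.7%, 32.4%, 32.6% and 30.6% in saline. These shares follow from the calls and describe their size. The share of genes that passed was 18.1% at a mean level under 1 CPM and 55.1% at 1000 CPM or more. Direction also changed with level, with 29 genes higher and 192 lower under 1 CPM and 460 higher and 951 lower at 1 to 10 CPM. At 10 to 100 CPM 1385 were higher and 1051 lower. Long intergenic noncoding RNAs were mostly lower where they passed, with 5 higher and 48 lower of 162 tested and a median of -0.54. The 183 antisense genes had 13 higher and 49 lower (median -0.55), against 2209 and 2277 of 12146 protein-coding genes (median 0.01). The part that level had in the values of the noncoding and antisense genes was not tested. Because the strand setting of the counting is unknown, antisense genes cannot be told apart from their partners.

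Animals under Dicretin also differed more among themselves. The median SD of log2 levels was 0.369 in Dicretin and 0.201 in saline, and 9916 of 12910 genes (76.8%) had the larger SD in Dicretin. Library 14 lay farthest from its mates, with a median gap of 0.417 on the log2 scale, library 65 next at 0.358, and libraries 64 and 23 at 0.293 and 0.25.

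Outside the genes left aside, the largest gains in mean CPM among genes whose groups did not overlap included hepatocyte enzymes and plasma proteins. Mat1a, which makes the methyl donor S-adenosylmethionine, stood at 6702, 8316, 12840 and 13180 CPM in Dicretin, against 3687, 3563, 3435 and 4017 CPM in saline. Its lowest Dicretin library lay well above every saline library (log2 fold change 1.48 ± 0.19, adjusted p = 1.19e-05). The complement protein C3, the ribonuclease Rnase4, the hyaluronan-binding Itih2 and the ferritin light chain Ftl1 rose by 0.92, 1.30, 1.47 and 0.87, with an adjusted p of at most 0.00125.

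Gstp1, a glutathione transferase, was also among these gains in CPM, with a larger fold change than Mat1a, C3, Rnase4, Itih2 or Ftl1. It stood at 1529, 3449, 3682 and 2049 CPM in Dicretin, against 410.7, 370.9, 283.2 and 407.2 CPM in saline. The groups did not overlap, and the log2 fold change was 2.86 ± 0.27 (adjusted p = 2.73e-07). Its close copy Gstp2 averaged 22.3 ± 6.60 CPM in Dicretin and 2.37 ± 0.798 CPM in saline (SD, n = 4 each), and reads of the pair may have been split by the counting.

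The largest losses in mean CPM among genes whose groups did not overlap included enzymes of drug, fatty acid and betaine metabolism. Cyp2e1, the ethanol- and ketone-oxidizing P450, stood at 1582, 3161, 3268 and 5681 CPM in Dicretin, against 11080, 10650, 13820 and 12510 CPM in saline. Every Dicretin library was lower than every saline library, and library 65 was the highest of them (log2 fold change -1.81 ± 0.26, adjusted p = 3.31e-05). Bhmt, which remakes methionine from betaine, stood at 365.3, 991.4, 271.4 and 1056 CPM in Dicretin, against 4081, 4665, 4370 and 3395 CPM in saline. Bhmt thus fell by 2.62 ± 0.42 while Mat1a, in the same cycle, rose.

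Carbonic anhydrase Car3 varied most among these abundant genes, at 823.8, 1794, 220.9 and 87.6 CPM in Dicretin, against 4321, 4815, 5426 and 3647 CPM in saline. Its log2 fold change was -2.64 ± 0.62 (adjusted p = 0.00367) and -3.57 without Dicretin library 23. Aldh1a1, which makes retinoic acid, averaged 607 ± 125 CPM in Dicretin and 2267 ± 213 CPM in saline. Fabp1, the liver fatty acid binding protein, and the peroxide-splitting Cat fell by 1.2 and 1.12 on the log2 scale. Alb and Apoa2, an apolipoprotein of high-density particles, had smaller fold changes, although Alb lost the most CPM of the genes described and its groups overlapped. Alb averaged 59620 ± 10120 CPM in Dicretin and 81650 ± 7860 CPM in saline (log2 fold change -0.45 ± 0.15, adjusted p = 0.0222), and Apoa2 averaged 6694 ± 1139 CPM in Dicretin and 9848 ± 1204 CPM in saline (-0.56 ± 0.20, adjusted p = 0.0328). Alb lost its call without any 1 of Dicretin libraries 23 and 65 and saline libraries 73 and 78 (adjusted p 0.0564 to 0.0774), and Apoa2 without any 1 of Dicretin libraries 14 and 23 and saline libraries 50, 73 and 78 (adjusted p 0.0539 to 0.116).

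The steepest increases included genes nearly silent in saline liver, such as Tuba8 and Btg3, and genes already present there, such as Cyp17a1. Tuba8 (chromosome 6, 121210696 to 121226854 in GRCm38, plus strand), an alpha-tubulin, stood at 78.1, 102.3, 90.5 and 85.4 CPM in Dicretin, against 0.843, 0.233, 0.748 and 0.331 CPM in saline. All 4 Dicretin libraries were close to each other and far from saline (log2 fold change 7.32 ± 0.52, adjusted p = 1.34e-08). Btg3 (chromosome 16, 78332637 to 78377192, minus strand), an antiproliferative protein, stood at 164.9, 83.7, 112.6 and 97.9 CPM in Dicretin, against 2.08, 1.57, 1.77 and 2.65 CPM in saline. Btg3 rose by 5.84 ± 0.27. Cyp17a1 (chromosome 19, 46667165 to 46673172, minus strand), the steroid 17-hydroxylase best known from gonads and adrenal glands, stood at 327.5, 640.6, 367.3 and 760.7 CPM in Dicretin, against 48.2, 30.9, 35.2 and 41.0 CPM in saline. It rose by 3.75 ± 0.35 without overlap between groups.

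Several steep increases varied widely between animals. Lrrc58 (chromosome 16, 37868389 to 37888858, plus strand), a leucine-rich repeat protein, stood at 1773, 657.8, 343.7 and 221.3 CPM in Dicretin, against 57.3, 49.8, 56.3 and 47.2 CPM in saline. Library 14 was the highest, and the log2 fold change of 3.83 ± 0.47 was 2.97 without it (adjusted p = 1.02e-07). The aldose reductase family member Akr1b7 stood at 78.7, 6.53, 14.2 and 41.3 CPM in Dicretin, against 0.0562, 0.116, 0.136 and 1.24 CPM in saline. Its log2 fold change of 6.67 ± 1.02 was 5.91 without Dicretin library 14 and 8.34 without saline library 78. The mucosal peptide Tff3 ranged from 9.70 to 63.7 CPM in Dicretin and from 0 to 2.07 CPM in saline (log2 fold change 5.20 ± 0.97), with values of 4.42 without Dicretin library 23 and 6.12 without saline library 78. The stress sensor Gadd45g and the ceramide kinase Cerk rose by 3.90 ± 0.55 and 3.78 ± 0.30 and were more even.

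Genes nearly lost under Dicretin had varied roles. Depp1 (chromosome 6, 116650609 to 116652794, plus strand), a FOXO-induced autophagy regulator, stood at 0.375, 1.59, 1.22 and 1.13 CPM in Dicretin, against 80.7, 40.0, 74.9 and 75.5 CPM in saline. The groups were separated widely, although saline library 50 was low (log2 fold change -5.99 ± 0.77, adjusted p = 2.42e-05). Osbpl3 (chromosome 6, 50293330 to 50456201, minus strand), an oxysterol-binding protein, stood at 0.429, 0.571, 0.542 and 1.82 CPM in Dicretin, against 46.3, 39.8, 37.8 and 23.2 CPM in saline. It fell by 5.54 ± 0.49, and by 6.15 without Dicretin library 65. The arrestin-like Arrdc3 averaged 6.14 ± 1.41 CPM in Dicretin and 178 ± 48.4 CPM in saline. The galactosyltransferase B3galt1 averaged 1.26 ± 0.534 CPM in Dicretin and 27.8 ± 7.77 CPM in saline, and the neuronal kinase Aatk averaged 0.991 ± 0.175 CPM in Dicretin and 24.8 ± 4.32 CPM in saline.

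**Figure D3:**
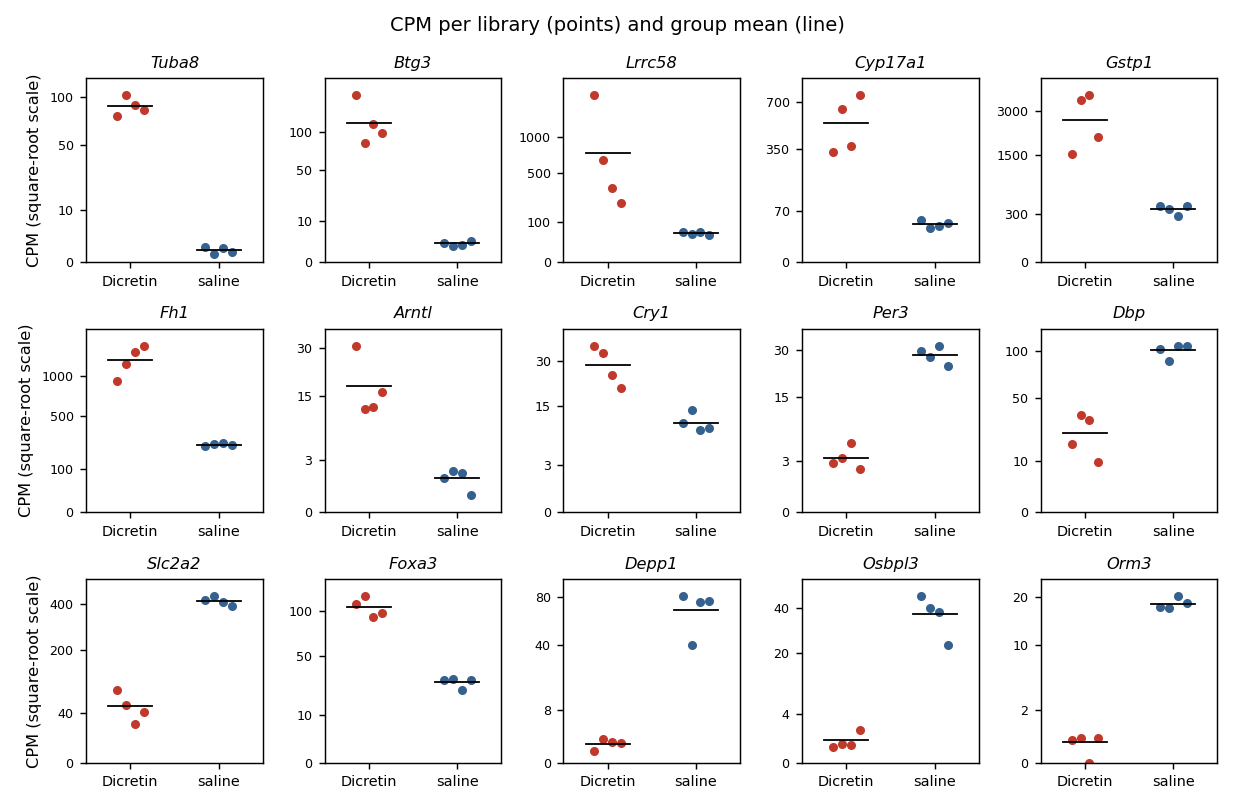
CPM per library (points, square-root scale) and group mean (line) for 15 genes, Dicretin left (red) and saline right (blue). The groups do not overlap in any of these genes, and Lrrc58, Cyp17a1 and Arntl spread more widely in Dicretin than in saline.

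The promoters of the changed genes were searched for short letters to describe what they share. The full cyclic AMP response element, TGACGTCA, was sought on either strand in the 250 bases before the start. A tested gene counted if any of its promoters held it. The element was found in 2.95% of 10000 tested genes with a promoter in the RefSeq table (GRCm38.p6). Counted singly, 1.55% of all 32851 promoters there held the element. It was present in 4.46% of genes higher in Dicretin, in 4.77% of those higher by at least 2-fold and in 10 of 144 (6.94%) of those higher by at least 4-fold. In genes lower by at least 4-fold it was found in 2 of 288 (0.694%), and in genes that did not pass it was found in 2.64%. The median GC content was 61.2% in promoters of genes higher by at least 4-fold, 54.5% in those lower by at least 4-fold and 59.6% in all, so base composition moved with these shares and its part in them was not tested.

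Promoter stretches with this element are shown for 6 of the genes that rose by at least 4-fold, chosen after their values were seen. Capitals mark the 8 letters, and each stretch reads 5′ to 3′ on the gene's strand.
Sstr2, chr11:113619253-113619292, plus strand: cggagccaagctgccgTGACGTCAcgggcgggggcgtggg
Dusp8, chr7:142095324-142095363, minus strand: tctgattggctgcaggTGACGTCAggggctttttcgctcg
Slc25a25, chr2:32424193-32424232, minus strand: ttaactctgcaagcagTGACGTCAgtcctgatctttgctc
Chpf, chr1:75479489-75479528, minus strand: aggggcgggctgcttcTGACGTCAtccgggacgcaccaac
Btg2, chr1:134079298-134079337, minus strand: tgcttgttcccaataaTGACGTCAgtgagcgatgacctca
Wsb1, chr11:79254710-79254749, minus strand: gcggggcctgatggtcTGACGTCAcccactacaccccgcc

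Members of the list of known cyclic AMP responders were left aside in this choice, so the absence of these 6 genes from it is not a result. Slc25a25, a mitochondrial carrier of ATP-Mg and phosphate, stood at 767.6, 730.2, 565.2 and 532.9 CPM in Dicretin, against 80.9, 145.3, 82.4 and 104 CPM in saline (log2 fold change 2.65 ± 0.38). Wsb1, a ubiquitin ligase subunit, stood at 42.2, 76.8, 68.6 and 77.6 CPM in Dicretin, against 16.3, 10.9, 22.1 and 16.5 CPM in saline (2.01 ± 0.25). Neither gene's groups overlapped. The antiproliferative Btg2, the chondroitin polymerizing factor Chpf, the phosphatase Dusp8 and the somatostatin receptor Sstr2 rose by 2.29, 2.31, 3.44 and 3.61, and Sstr2 reached only 4.42 to 9.53 CPM in Dicretin. A match describes the letters and is not a binding site.

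Clock genes moved in opposite directions in the transcriptional loop that runs through Arntl and Clock, its activators, and through the Per and Cry repressors and the output factors. Arntl (chromosome 7, 113207465 to 113314126, plus strand) stood at 30.8, 11.9, 12.3 and 16 CPM in Dicretin, against 1.29, 1.86, 1.70 and 0.331 CPM in saline. All Dicretin libraries exceeded all saline libraries, with a log2 fold change of 3.73 ± 0.55 (adjusted p = 5.68e-05). Clock averaged 38.5 ± 11.1 CPM in Dicretin and 16.3 ± 1.78 CPM in saline. The repressor Cry1 stood at 36.6, 33.2, 24.7 and 20.4 CPM in Dicretin, against 10.5, 13.7, 8.91 and 9.26 CPM in saline. Cry1 rose by 1.44 ± 0.22 without overlap.

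Per3, another repressor, stood at 2.73, 3.30, 5.42 and 2.17 CPM in Dicretin, against 29.6, 27.5, 31.6 and 24.2 CPM in saline. The output factor Dbp stood at 17.9, 36.3, 32.7 and 9.79 CPM in Dicretin, against 102.4, 87.8, 106.3 and 105.7 CPM in saline. Both fell without overlap, Per3 by 3.04 ± 0.34 and Dbp by 2.05 ± 0.35. The related factor Hlf fell by 1.26 ± 0.18, whereas Nr1d2, a repressor of Arntl, rose by 0.65 ± 0.18. Its relative Nr1d1 averaged 22.3 ± 3.58 CPM in Dicretin and 32.4 ± 5.45 CPM in saline and did not pass (adjusted p = 0.0806), but passed with only the 2 groups in the fit (adjusted p = 0.0285). Per2 averaged 15.5 ± 8.91 CPM in Dicretin and 30.0 ± 1.82 CPM in saline (adjusted p = 0.0389), with 28.6 CPM in Dicretin library 14, and it lost its call without any single library except Dicretin 14 (adjusted p 0.0525 to 0.108). Of the 4 activators tested 3 rose and 1 fell, and of the 14 repressors and output factors 3 rose and 6 fell. The part that collection time had in these values was not tested.

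TTATGNAA, where N is any base, is a loose form of the letters bound by Dbp, Hlf and their relatives. It was found on either strand in 7.64% of genes lower by at least 4-fold (22 of 288). Matches include TTATGAAA, as in Mup17, and TTATGGAA, as in Hao2, and whether the factors bind these forms was not tested. The share with TTATGNAA was 4.86% in genes higher by at least 4-fold and 2.57% in all tested genes with a promoter. A gene counted if any of its promoters held the match, whereas the 3.07% of all 32851 RefSeq promoters counts each promoter singly. The median GC content was 54.5% in genes lower by at least 4-fold, 61.2% in those higher by at least 4-fold and 59.6% in all tested. The part of base composition in these shares was not tested. Over all genes that passed, without a limit on fold change, TTATGNAA was found in 2.4% of genes higher and 3.76% of genes lower. The E-box CACGTG holds the letters bound by the Clock and Arntl pair. It was found in 11.6% of genes higher, 10.9% of genes lower and 9.94% of all tested. Among changes of at least 4-fold the E-box was found in 9.72% of genes higher (14 of 144) and 12.2% of genes lower (35 of 288). A promoter can hold more than 1 of the motifs, and overlapping matches were not removed. Near-identical copies were counted separately: 4 of the 22 genes were Mup9, Mup17, Mup18 and Mup19, major urinary protein genes that hold the match in identical stretches. Mup2 holds the same stretch and had a log2 fold change of 4.46, and counts of these copies are uncertain. Per3 holds 2 matches to TTATGNAA, and the carboxylesterase Ces1g and the carrier Slc16a12 hold 1 each. They are shown because all 3 genes fell, and capitals mark the match on the gene's strand, which in Slc16a12 is the reverse complement.
Per3, chr4:151044800-151044839, minus strand: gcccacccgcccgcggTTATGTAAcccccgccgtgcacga
Per3, chr4:151044847-151044886, minus strand: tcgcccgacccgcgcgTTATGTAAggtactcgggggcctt
Ces1g, chr8:93337418-93337457, minus strand: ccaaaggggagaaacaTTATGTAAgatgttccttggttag
Slc16a12, chr19:34747381-34747420, minus strand: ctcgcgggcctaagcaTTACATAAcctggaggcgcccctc

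Slc16a12, a creatine carrier, stood at 14.0, 13.1, 15.7 and 16.6 CPM in Dicretin, against 87.0, 97.1, 84.4 and 87.7 CPM in saline. It was among the most even of the decreases (log2 fold change -2.58 ± 0.19, adjusted p = 1.51e-08).

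Genes for making and folding proteins were mostly higher. Of the 20 endoplasmic reticulum (ER) chaperones and folding enzymes, 14 rose and 1 fell, with a median log2 fold change of 0.65 against -0.01 for all genes. The 1 that fell was not called without any 1 of Dicretin libraries 14 and 23 and saline libraries 73 and 78, and 2 fell without Dicretin library 65. Hspa5, the main ER chaperone, stood at 934.5, 795.8, 826.4 and 1652 CPM in Dicretin, against 346.4, 403.1, 323.3 and 361.5 CPM in saline. Library 65 was the highest, and the groups did not overlap (1.55 ± 0.25, adjusted p = 9.53e-05). The secreted stress factor Manf also peaked in library 65, at 211.1 CPM against 69.0 to 82.1 CPM in the other Dicretin libraries and 25.9 to 35.4 CPM in saline. Hyou1 and Dnajb9, both ER chaperones, rose by 1.84 and 1.17. Xbp1, which drives many of these genes, averaged 150 ± 28.0 CPM in Dicretin and 170 ± 30.2 CPM in saline and did not pass (adjusted p = 0.506). Of the 20 cytosolic heat shock chaperones 10 rose and 0 fell (median 0.42), and none fell by DESeq2 or at an unadjusted p under 0.05, while 8 rose and 1 fell without Dicretin library 64. The constitutive chaperone Hspa8 rose by 1.03 ± 0.24 and the co-chaperone Stip1 by 0.84 ± 0.15.

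Of the 19 cytosolic aminoacyl-tRNA synthetases, which load amino acids for translation, 10 rose and 1 fell (median 0.41), where the fall was not called without Dicretin library 14 or 23 and 2 fell without Dicretin library 64. Aars stood at 697.6, 558, 523.7 and 371.7 CPM in Dicretin, against 182.1, 173.6, 179.6 and 158.5 CPM in saline. The synthetase sum was higher in every Dicretin library (1350 to 1719 CPM) than in any saline library (921 to 957 CPM). Yars, Sars and Gars rose by 0.98, 0.91 and 0.55, and Aars by 1.63. Of 30 lysosomal proton pump subunits and cathepsins tested, 16 rose and 2 fell (median 0.42), and their sum was 5392 to 6760 CPM in Dicretin and 4512 to 4813 CPM in saline. The pump subunit Atp6v1b2 stood at 103.3, 88.1, 82.2 and 82.4 CPM in Dicretin, against 47.2, 39.4, 40.5 and 45.2 CPM in saline. Its relative Atp6v0d2, known from osteoclasts and macrophages, averaged 0.903 ± 0.624 CPM in Dicretin and 5.94 ± 1.69 CPM in saline. The autophagy receptor Sqstm1 and the autophagosome protein Map1lc3a rose by 0.92 and 1.06, within a list of 27 of which 8 rose and 5 fell (5 rose without saline library 35).

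Cytosolic ribosomal protein genes had positive fold changes in all 77 tested members, of which 39 passed, with a median of 0.66. Their sums were 17000, 23900, 29890 and 33510 CPM in Dicretin, against 14420, 16300, 16720 and 18970 CPM in saline. The groups overlapped, because Dicretin library 14 lay within the saline range. The number of members that passed was 67 without Dicretin library 14, 19 without library 64, 12 without library 65 and 17 without saline library 35, and 69 with the length trend removed. Rpl13a, the member with the largest rise, stood at 459.6, 785.5, 947.5 and 974.9 CPM in Dicretin, against 261.2, 287.8, 304.1 and 318.3 CPM in saline (1.44 ± 0.30). Ribosomal protein genes have many processed copies in the genome, so their counts are uncertain.

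In nuclear genes of the respiratory chain, Dicretin library 14 was again the lowest of its group and lay within the saline range. Of 75 subunits 22 rose and 1 fell (median 0.46), and the sums were 15870, 22690, 22080 and 23380 CPM in Dicretin, against 13430, 15140, 16280 and 16020 CPM in saline. The number that rose was 41 without Dicretin library 14, 14 without library 64, 13 without library 65, 10 without saline library 35 and 52 with the length trend removed. Atp5b, the catalytic subunit of ATP synthase, was steady, at 1905, 2022, 1970 and 2011 CPM in Dicretin, against 1228, 1252, 1233 and 1359 CPM in saline (0.64 ± 0.12, adjusted p = 0.000321). The muscle isoform Cox7a1 rose by 2.99 ± 0.44 to a mean of 12.4 ± 2.30 CPM in Dicretin, against 1.56 ± 0.291 CPM in saline. The exception, Ndufa4l2, fell by 2.63 ± 0.40 and lies opposite Shmt2. Of 77 mitochondrial ribosomal proteins 11 rose and 1 fell (median 0.23), and the number that rose was 25 without Dicretin library 14, 7 without library 64 or 65, 5 without saline library 35 and 33 with the length trend removed. Of 38 proteasome subunits 3 rose and 2 fell (10 rose without Dicretin library 14, 8 with the length trend removed and 5 by DESeq2, and 1 fell without any 1 of Dicretin libraries 14 and 23 and saline libraries 35 and 78), with Psmd9 at 1.46 ± 0.14 and the immunoproteasome subunit Psmb9 at -2.39 ± 0.36.

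**Figure D4:**
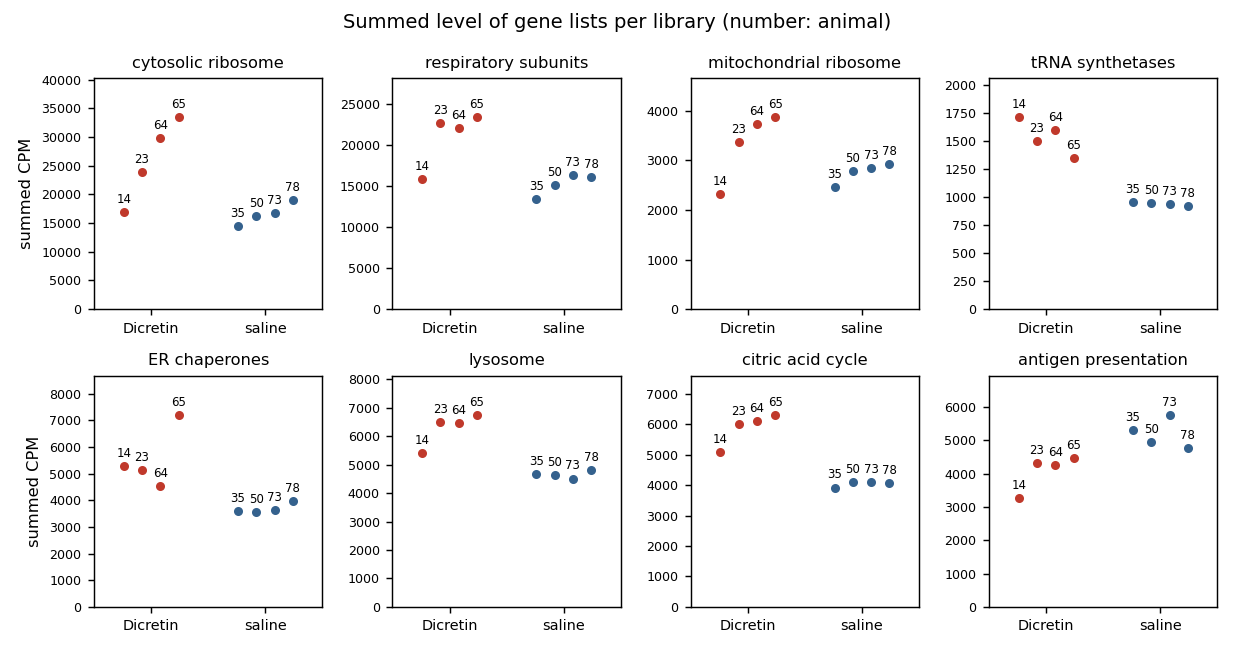
Summed CPM of 8 gene lists, 1 point per library with its animal number, Dicretin left (red) and saline right (blue), axes starting at 0. Dicretin library 14 is the lowest of its group for the cytosolic ribosome, respiratory subunits and mitochondrial ribosome, and the groups do not overlap for tRNA synthetases, ER chaperones, lysosome, citric acid cycle and antigen presentation.

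In the citric acid cycle, 8 of 18 genes rose and 1 fell (median 0.23), where the fall was not called without any 1 of Dicretin libraries 64 and 65 and saline libraries 35 and 50. Fh1 (chromosome 1, 175600374 to 175625635, minus strand), which turns fumarate into malate, stood at 921.2, 1183, 1383 and 1493 CPM in Dicretin, against 233.3, 248.7, 254.5 and 244.3 CPM in saline. It was a 5.08-fold difference without overlap (log2 fold change 2.34 ± 0.19, adjusted p = 3.5e-08). Idh3a, a subunit of the NAD-linked isocitrate dehydrogenase, stood at 109.8, 112.8, 132.9 and 197.5 CPM in Dicretin, against 33.3, 38.7, 36.7 and 37.6 CPM in saline. Mdh2, which follows Fh1 in the cycle, stood at 446.2, 461.4, 519.4 and 447.4 CPM in Dicretin, against 199.3, 216.8, 231.7 and 184.4 CPM in saline. Idh3a and Mdh2 rose by 1.92 ± 0.20 and 1.17 ± 0.13. Fh1, Idh3a and Mdh2 were also higher than in Calorie restricted and Semaglutide livers, by 1.09 to 2.37 on the log2 scale (adjusted p at most 5.08e-05).

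Several genes of glucose uptake and use were lower. Slc2a2 (chromosome 3, 28697903 to 28731359, plus strand), the hepatocyte glucose transporter, stood at 83.1, 53.3, 24.4 and 41.6 CPM in Dicretin, against 418, 439.8, 409.4 and 387.8 CPM in saline. The groups did not overlap, and it fell by 3.03 ± 0.26. The bifunctional enzyme Pfkfb1 and the glucose-sensing factor Mlxipl fell by 1.17 and 0.90, while Pgam1, in lower glycolysis, rose by 0.62. Of 18 genes of glucose and fructose use, 4 rose and 6 fell. Pyruvate kinase, Pklr, stood at 203.4, 22.1, 31.3 and 39.9 CPM in Dicretin, against 310.3, 332.1, 203.4 and 196.5 CPM in saline (-1.81 ± 0.60, adjusted p = 0.0281). Library 14 was the outlying value, and without it Pklr fell by 3.05 (adjusted p = 5.83e-05), whereas the call was lost when any other Dicretin library, saline library 35 or saline library 50 was left out (adjusted p 0.0654 to 0.082). Of 18 glycogen genes 2 rose and 8 fell (median -0.54), and 1 rose without any 1 of Dicretin libraries 23, 64 and 65 and saline libraries 35, 50 and 78. They include the glycogen-targeting phosphatase subunit Ppp1r3b averaging 63.6 ± 19.9 CPM in Dicretin and 211 ± 23.7 CPM in saline, and the kinase subunit Phka2, which fell by 1.22.

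**Figure D5:**
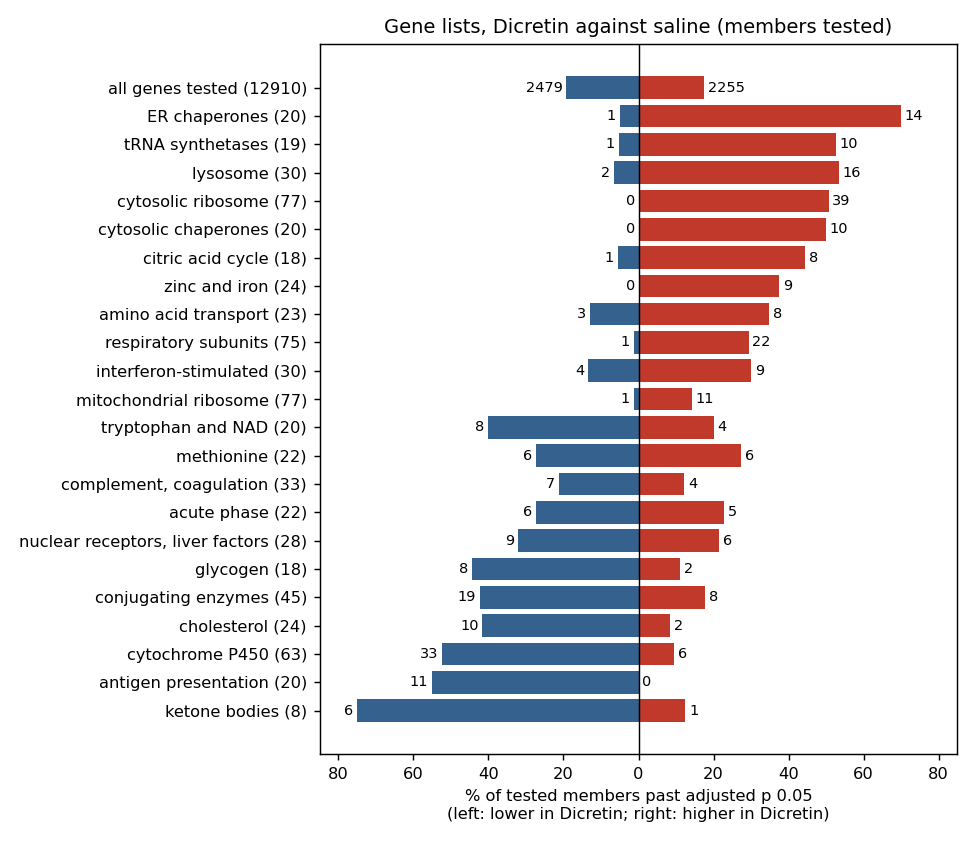
Percent of tested members of each gene list (number tested in brackets) that were higher in Dicretin (right, red) or lower (left, blue), with counts beside the bars and all 12910 genes on top. ER chaperones have 14 of 20 members higher, and ketone body genes have 6 of 8 and cytochrome P450 genes 33 of 63 members lower.

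The share of a list's members that passed in either direction is read against the 36.7% of all genes. It was close to that share for lipoproteins (33.3%), mitochondrial fatty acid oxidation (35.0%) and insulin signalling (30.0%), and also for respiratory subunits (30.7%), where nearly all calls were increases. It was lower for mitochondrial ribosomal proteins (15.6%) and proteasome subunits (13.2%), and higher for ketone body genes (87.5%), ER chaperones (75.0%) and cytochrome P450 genes (61.9%).

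Amino acid handling outside the urea cycle moved in both directions. Of 23 amino acid transporters tested 8 rose and 3 fell (1 fell without Dicretin library 65 or saline library 50). The cationic amino acid transporter Slc7a2 stood at 1408, 1763, 1650 and 1428 CPM in Dicretin, against 393.5, 284.9, 464 and 398.1 CPM in saline. The neutral amino acid transporter Slc38a2 and the heavy chain Slc3a2 rose by 2.19 and 2.16, and the mitochondrial carrier Slc25a47 fell by 1.79. In methionine metabolism 6 of 22 genes rose and 6 fell. Cth, which makes cysteine, stood at 1043, 1542, 1972 and 1728 CPM in Dicretin, against 266.4, 254.6, 343.1 and 430.2 CPM in saline. The groups were far apart (2.28 ± 0.22), while Shmt2, a mitochondrial serine enzyme, fell by 1.28 ± 0.13.

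In tryptophan and NAD metabolism 4 of 20 genes rose and 8 fell. Nnmt, which methylates nicotinamide, stood at 942, 1663, 2195 and 1798 CPM in Dicretin, against 115.9, 116.3, 144.5 and 164.3 CPM in saline. Acmsd, which diverts tryptophan away from NAD, stood at 65.0, 103.4, 90.4 and 95.7 CPM in Dicretin, against 7.87, 6.57, 10.6 and 12.5 CPM in saline. Both rose without overlap, by 3.61 ± 0.34 and 3.25 ± 0.24. In contrast the tryptophan-oxidizing Ido2 stood at 6.37, 10.8, 9.69 and 7.10 CPM in Dicretin, against 102, 86.4, 106.1 and 98.5 CPM in saline. It fell by 3.53 ± 0.20, and the nicotinamide riboside kinase Nmrk1 fell by 2.92 ± 0.29.

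Of 8 genes of ketone body synthesis and export, 6 fell and 1 rose (median -0.68). The monocarboxylate carrier Slc16a7 and the ketone-interconverting Bdh1 fell by 1.26 and 0.92 and the thiolase Acat1 by 0.68, while the carrier Slc16a1 rose by 1.11. Mitochondrial fatty acid oxidation had 3 members higher and 4 lower of 20 (median 0.01), with 5 higher once the length trend was removed. Of 24 genes of cholesterol synthesis, uptake and control, 10 fell and 2 rose (median -0.72), and 1 rose without Dicretin library 65 or saline library 73 or 78. Hmgcs1, an early step, stood at 46.9, 45.2, 30.8 and 29.4 CPM in Dicretin, against 222, 216.8, 188.3 and 128.4 CPM in saline (-2.31 ± 0.39). The later enzymes Msmo1, Nsdhl and Fdft1 fell by 2.1, 1.92 and 1.17. Of 24 lipoprotein genes 5 rose and 3 fell (1 fell without saline library 73 or 78, and fewer without saline library 50), with Apom, a sphingosine-1-phosphate carrier, averaging 273 ± 91.8 CPM in Dicretin and 92.9 ± 19.7 CPM in saline. The lipase inhibitor Angptl8 rose by 1.48 ± 0.26 and the lipidation factor Tm6sf2 by 1.08 ± 0.17. Acot3, a peroxisomal thioesterase, and Acot11 fell by 1.43 and 1.40.

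Cytochrome P450 genes had 33 members lower and 6 higher of 63 tested (median -0.75), against 19.2% lower and 17.5% higher among all genes. Their summed level was 11000 to 18030 CPM in Dicretin and 25120 to 32010 CPM in saline. Cyp4a12a, an arachidonic acid hydroxylase, stood at 0.161, 2.22, 0.407 and 0.260 CPM in Dicretin, against 42.2, 28.8, 37.9 and 34.8 CPM in saline. It fell by 5.52 ± 0.65, and by 7.00 without Dicretin library 23. Cyp39a1, an oxysterol hydroxylase, went the other way, at 204.4, 192.2, 164.3 and 181.4 CPM in Dicretin, against 25.4, 21.5, 23.3 and 32.9 CPM in saline (2.85 ± 0.24). Cyp2a4 stood at 228.6, 150.8, 581.3 and 60.9 CPM in Dicretin, against 16.1, 15.5, 16.5 and 5.46 CPM in saline. Its log2 fold change of 4.25 ± 0.68 was 3.45 without Dicretin library 64, while its close copies Cyp2a5 and Cyp2a12 fell by 1.96 ± 0.36 and 1.58 ± 0.15. Reads of the Cyp2a and Cyp4a copies may have been divided by the counting.

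Of 45 conjugating enzymes tested 8 rose and 19 fell (median -0.57), and 4 rose without Dicretin library 64. Within the Ugt1a locus, whose transcripts share their last exons, Ugt1a9 averaged 103 ± 36.8 CPM in Dicretin and 9.14 ± 4.37 CPM in saline, whereas Ugt1a1 averaged 43.3 ± 16.1 CPM in Dicretin and 106 ± 7.25 CPM in saline. Ugt1a5 stood at 6.64, 2.41, 0.407 and 0.433 CPM in Dicretin, against 18.7, 21.3, 7.89 and 10 CPM in saline (-2.49 ± 0.68, and -3.66 without Dicretin library 14). Counts of this locus are uncertain because of the shared exons. The glucuronosyltransferase Ugt3a1, on another chromosome, fell by 1.67 ± 0.14.

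Several decreases lay side by side on the chromosomes. There were 7 runs of at least 4 neighbouring tested protein-coding genes that were all lower by at least 2-fold, and 5 of them held members of 1 gene family. The Ces1 run (chromosome 8, 93166068 to 93337308) held the carboxylesterases Ces1d, Ces1e, Ces1f and Ces1g, which cleave esters and drugs, with log2 fold changes of -4.43 to -1.14. Ces1g stood at 34.4, 13.9, 4.61 and 7.79 CPM in Dicretin, against 325.9, 361.8, 347.8 and 284.1 CPM in saline, and fell by 5.21 in place of 4.43 without Dicretin library 14. Ces1f was the least reduced, at 170, 268, 316.5 and 129.8 CPM in Dicretin, against 479.4, 477.9, 552.1 and 436 CPM in saline. The Ces2 run (chromosome 8, 104734003 to 104969537) held Ces2a, Ces2c, Ces2e and Ces2g, with values of -4.06 to -1.32.

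Within the Ces2 run, Dicretin library 14 was the highest of its group for all 4 genes. Ces2e stood at 114.6, 37.6, 20.3 and 16.8 CPM in Dicretin, against 258.5, 292.5, 275.4 and 254.1 CPM in saline. Without library 14 the log2 fold changes of Ces2c, Ces2e and Ces2g were -5.19, -3.42 and -2.61, and with it they were -4.06, -2.51 and -1.69. The steroid dehydrogenase run (chromosome 3, 98618634 to 98893239) held Hsd3b5, Hsd3b2, Hsd3b3 and the hydroxyacid oxidase Hao2. Hsd3b3 stood at 37.8, 48.4, 28.3 and 34.4 CPM in Dicretin, against 194.8, 213.7, 222.2 and 254.6 CPM in saline. Hsd3b2 and Hsd3b3 fell by 2.54 and 2.57 and Hao2 by 5.20, or by 5.83 without Dicretin library 23. Hsd3b5 was low in both groups, at 0.107 to 0.474 CPM in Dicretin and 0.136 to 7.69 CPM in saline, and its call (log2 fold change -3.35, adjusted p = 0.0441, or -2.44 without saline library 78) was lost when saline library 50, saline library 78 or any 1 Dicretin library was left out (adjusted p 0.0642 to 0.134). The remaining families were the Cyp2a and Cyp2g1 genes on chromosome 7 and Ugt1a genes on chromosome 1, and copies within all 5 families are so alike that counting may have divided their reads.

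Metal-handling genes had 9 of 24 members higher and 0 lower (median 0.30). These 37.5% of members called are close to the 36.7% of all genes. The count of 0 lower, from edgeR, was also 0 at an unadjusted p under 0.05 and by DESeq2, and was 1 without Dicretin library 14 or saline library 35. The metallothionein Mt1 stood at 447.5, 741.5, 619.1 and 669.1 CPM in Dicretin, against 173.3, 159.3, 229.9 and 184.6 CPM in saline. Mt2 rose with it, by 2.05 ± 0.29 against 1.73 ± 0.28. Hpx, which carries haem, stood at 4034, 9781, 12730 and 11670 CPM in Dicretin, against 4208, 3388, 3461 and 4157 CPM in saline. Library 14 lay within the saline range, and the log2 fold change was 1.33 ± 0.25 (adjusted p = 0.000477). Hamp, which encodes the iron hormone hepcidin, showed the same library order, at 185.9, 2554, 4243 and 3971 CPM in Dicretin, against 313.3, 579.7, 1091 and 890.1 CPM in saline. Its rise of 1.93 ± 0.61 (adjusted p = 0.0213) lost its call without Dicretin library 64, Dicretin library 65, saline library 35 or saline library 50 (adjusted p 0.0549 to 0.0608). Haem oxygenase, Hmox1, rose by 1.46 ± 0.25.

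Acute-phase proteins had 5 members higher and 6 lower of 22. Serum amyloid Saa4 stood at 79.3, 109.8, 114 and 90.0 CPM in Dicretin, against 361.2, 412.4, 410 and 584.1 CPM in saline. Saa1 and Saa2 fell by 2.56 ± 0.52 and 3.59 ± 0.54. Orm3, an orosomucoid, stood at 0.375, 0.444, 0 and 0.433 CPM in Dicretin, against 17.7, 17.3, 20.1 and 18.4 CPM in saline. The groups were far apart (-5.84 ± 0.63, adjusted p = 1.45e-06). The complement protease C1s1 averaged 165 ± 34.2 CPM in Dicretin and 423 ± 31.4 CPM in saline. Of 33 complement and coagulation genes 4 rose and 7 fell, and these 33.3% are close to the 36.7% of all genes. The number that rose was 2 without Dicretin library 23 or saline library 35 or 50 or with upper quartile factors, and 1 with only these groups in the fit.

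Of 20 antigen presentation genes 11 fell and none had a positive fold change (median -0.82), and 7 fell with the length trend removed and Dicretin library 14 left out. Tap1, which carries peptides into the ER, stood at 11.5, 7.67, 11.3 and 14.2 CPM in Dicretin, against 39.1, 34.7, 37.7 and 28.0 CPM in saline. Its partner Tap2 and the regulator Nlrc5 fell by 1.02 ± 0.16 and 1.47 ± 0.24. Interferon-stimulated genes were mixed, with 9 of 30 higher and 4 lower, and 4 higher and 8 lower without Dicretin library 65. With all libraries 43.3% of them passed, against 36.7% of all genes. Ifi27 rose by 1.5 ± 0.25, Usp18 stood at 70.1 CPM in Dicretin library 65 and 19.8 to 35.6 CPM in the other Dicretin libraries, against 8.93 to 15.4 CPM in saline, and the guanylate-binding Gbp7 fell by 1.54 ± 0.20. Kupffer cell marker sums were also highest in Dicretin library 65, at 734 CPM, and their part in the interferon values was not tested.

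Liver transcription factors and nuclear receptors had 6 members higher and 9 lower of 28. Foxa3 stood at 109.4, 121.3, 92.4 and 98.5 CPM in Dicretin, against 30.0, 30.8, 23.3 and 29.9 CPM in saline (1.89 ± 0.16, adjusted p = 9.99e-08). The mitochondrial regulator Esrra rose by 1.55 ± 0.20 and the hepatocyte identity factor Hnf4a by 0.82 ± 0.19. Nr1i3, the xenobiotic receptor CAR, stood at 2.63, 4.50, 12.1 and 17.2 CPM in Dicretin, against 67.9, 77.5, 104 and 64.2 CPM in saline. It fell by 3.13 ± 0.42, and the bile acid-induced repressor Nr0b2 fell by 1.45 ± 0.31. Among adipocyte markers Pparg, Cfd, Cidec, Adrb3 and Car3 fell, while the defining adipocyte genes Adipoq, Lep, Plin1 and Retn were at or near 0 in both groups, at most 0.271 CPM in Dicretin and 0.827 CPM in saline.

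Of 20 insulin signalling genes 5 rose and 1 fell (8 rose without Dicretin library 64 and 9 with the length trend removed). Irs2, a receptor substrate, stood at 36.5, 18.7, 10.1 and 14.8 CPM in Dicretin, against 3.54, 1.11, 1.84 and 4.30 CPM in saline (2.91 ± 0.59). The kinases Pdpk1 and Akt1 rose by 1.05 and 0.60. In the growth hormone axis the receptor Ghr stood at 284.8, 458, 333.7 and 373.2 CPM in Dicretin, against 631.1, 645.1, 630.2 and 697.1 CPM in saline. Ghr, Stat5a and Stat5b fell by 0.84, 1.38 and 0.89, and the feedback inhibitor Socs3 rose by 1.96 ± 0.33. Of 19 genes of insulin-like growth factors and growth hormone tested, 4 rose and 4 fell (median -0.12). These 42.1% are near the 36.7% of all genes. Of 19 Wnt pathway genes of the lobule 3 rose and 5 fell, and these 42.1% are near the 36.7% of all genes. Lgr4, a receptor that strengthens Wnt signals, averaged 115 ± 24 CPM in Dicretin and 44.3 ± 4.82 CPM in saline, and the feedback inhibitors Notum and Nkd1 fell by 1.18 and 1.1. Among 26 cell cycle genes 7 rose and 5 fell (10 fell without Dicretin library 14, and 3 without Dicretin library 23 or saline library 50), with the replication clamp Pcna averaging 73.1 ± 5.04 CPM in Dicretin and 40.1 ± 4.40 CPM in saline. With all libraries 46.2% of the cell cycle genes passed, against 36.7% of all genes.

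Dicretin was also set against the 2 weight-losing groups directly, with the same Dicretin libraries in each comparison. Against Calorie restricted mice 4041 genes differed (31.3%), and against Semaglutide mice 4128 genes differed (32.0%). Of the 2255 genes higher in Dicretin than in saline, 1337 were also higher than in Calorie restricted livers, 1435 higher than in Semaglutide livers and 1038 (46.0%) higher than in both. Of the 2479 genes lower, 1257 (50.7%) were lower than in both. These comparisons share the Dicretin libraries, so the counts are not independent of each other.

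Some genes that were higher than in saline did not differ from a weight-losing group, and others did. Arntl stood at a mean of 17.7 ± 8.87 CPM in Dicretin, 22.8 CPM in Calorie restricted and 0.931 CPM in Semaglutide livers, and the difference from Calorie restricted did not pass (adjusted p = 0.588). Clock did not differ from Calorie restricted either (adjusted p = 0.898), while both genes exceeded Semaglutide by 4.20 and 1.30. The ER chaperone Hspa5 averaged 1052 ± 404 CPM in Dicretin, 1019 CPM in Calorie restricted and 658 CPM in Semaglutide livers, with a log2 difference of 0.05 from Calorie restricted (adjusted p = 0.903). Hspa5 exceeded Semaglutide by 0.68 (adjusted p = 0.0405), while Hyou1, Manf and Stip1 passed neither comparison, with adjusted p of 0.119 to 0.723. Dnajb9 exceeded both Calorie restricted and Semaglutide livers (0.98 and 0.80), as did Hspa8 (0.78 and 0.88), and 6 of the 20 ER chaperones differed from Calorie restricted and 6 from Semaglutide. Of the 77 cytosolic ribosomal proteins, 11 differed from Calorie restricted and 0 from Semaglutide by edgeR (1 at an unadjusted p under 0.05, 0 by DESeq2). Among all genes 31.3% differed from Calorie restricted and 32.0% from Semaglutide. The counts of ER chaperones are close to these shares, and those of ribosomal proteins are below them.

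The metallothioneins behaved differently. Mt1 averaged 619 ± 125 CPM in Dicretin, 4.31 CPM in Calorie restricted and 21.7 CPM in Semaglutide livers, against 187 ± 30.6 CPM in saline, and it exceeded the weight-losing groups by 7.16 and 4.84 on the log2 scale. Nnmt, Slc7a2, Cyp17a1 and Tuba8 exceeded both by at least 1.81, and Slc2a2 and Ido2 were lower than in both, with log2 differences of -3.22 to -2.80. Bhmt, by contrast, averaged 671 ± 410 CPM in Dicretin and 529 CPM in Semaglutide livers, a difference that did not pass (adjusted p = 0.542), and it was 1.80 lower than in Calorie restricted livers on the log2 scale. A p that misses the threshold does not show that groups were alike.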

How the data were processed

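Liver RNA libraries (poly(A)-selected, directional kit, per the labels' protocols) were made from 16 mice, and 8 of them form the main comparison. The authors deposited raw counts per gene, with no normalization. TopHat2 2.1.1, featureCounts and mm10 are named in the submitters' processing notes, while the strand setting and annotation release are not given in the sources used here. Of 46078 genes, 22577 had no count. Counts were tested in R 4.3.3 with edgeR 4.0.16: filterByExpr and TMM, 1 quasi-likelihood model (robust) over 16 libraries in 4 groups, and Benjamini-Hochberg adjustment within each contrast over 12910 genes. The SE is the absolute log2 fold change over the square root of F. CPM use TMM-scaled totals. The common biological coefficient of variation was 0.24. Symbols and positions come from GENCODE M21 (GRCm38), and promoters from RefSeq (GRCm38.p6). The script was tested on simulated data. DESeq2 1.42.0 served as an alternative.

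Members, gene lists and alternatives were chosen with earlier results of these data known. Lists were described by counts and medians. Genes named were the largest changes at 20 CPM or more without overlap between groups, the largest gains and losses in CPM, up to 4 members with the smallest p per list and a panel of receptors and liver factors. Genes shown for the cyclic AMP element and the genes of the chromosomal runs, with Ugt1a1 and Ugt1a5, were named after their values were seen. The model had group as its only term; batches are not labelled. Some genes the rule picks are not reported here.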

Additional observations from a re-analysis of the deposited data

Results flagged for a closer look

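In groups of 4 libraries, 1 value can lie far from the other 3. Of 402 groups checked over the genes and marker sums described, 21 (5.22%) held such a library, and chance gives about 1 in 20. Sums of markers come first. Pancreatic acinar markers summed to 1603 CPM in Dicretin library 64 and to 6.37 to 10.8 CPM in its mates. Cholangiocyte markers summed to 67.1 CPM in saline library 78 and to 20.6 to 22.6 CPM in its mates. Sinusoidal endothelial markers summed to 189 CPM in Dicretin library 23 (mates 338 to 349 CPM) and to 237.5 CPM in saline library 78 (mates 306 to 319 CPM). Kidney markers summed to 0.281 CPM in saline library 35 and to 0 in its mates.

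In Dicretin, library 65 was high for Hspa5 (1652 CPM, mates 795.8 to 934.5), Manf (211.1 CPM, mates 69.0 to 82.1) and Osbpl3 (1.82 CPM, mates 0.429 to 0.571). Library 64 was high for Ces1d (331.2 CPM, mates 158.7 to 170.7) and Chpf (16.1 CPM, mates 9.53 to 10.6), and at 0 for Orm3 (mates 0.375 to 0.444 CPM). Library 23 was high for Cyp4a12a (2.22 CPM, mates 0.161 to 0.407), and library 14 for Pklr (203.4 CPM, mates 22.1 to 39.9).

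In saline, library 78 was high for Akr1b7 (1.24 CPM, mates 0.0562 to 0.136) and low for Cyp2a4 (5.46 CPM, mates 15.5 to 16.5), Clock (13.7 CPM, mates 16.8 to 17.4) and Per2 (27.3 CPM, mates 30.8 to 31.0). Library 73 was high for Cyp2a12 (858.7 CPM, mates 684.9 to 711) and Tap2 (23.3 CPM, mates 21.4 to 21.6) and low for Foxa3 (23.3 CPM, mates 29.9 to 30.8). Library 50 was low for Depp1 (40.0 CPM, mates 74.9 to 80.7).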

How the results depend on the processing

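Counts of genes that passed stayed within 1.5 times of the reported count under every alternative run. With single libraries left out, 3921 to 4822 genes differed from saline, 1816 to 2350 were higher and 2077 to 2472 lower, 3468 to 4434 differed from Calorie restricted and 3701 to 4073 from Semaglutide. DESeq2's Wald test called 5145, no filter on low counts 4304 and removal of the length trend 5468, and the settings shared 81.3% to 98.5% of the reported calls. The share of calls that were higher was 47.6%, 50.0% with DESeq2 size factors, 41.0% with upper quartile factors and 58.5% with the length trend removed. Of 189 genes described or checked, 186 passed, and 6 lost the call in some setting (Apoa2, Per2, Pklr, Hamp, Alb and Hsd3b5). None of the 189 changed sign in 3014 values, of which 2970 kept their side of the threshold. Many of the 189 were picked from these same data for large changes or a small p, which favours keeping sign and call. Without a filter on low counts these 6 had adjusted p of 0.0575 to 0.135. With only the 2 groups in the fit Alb, Pklr and Hamp stood at 0.0787, 0.0694 and 0.094, and with the length trend removed Alb, Pklr and Hsd3b5 stood at 0.0633, 0.0519 and 0.0654. Counts in several lists, among them the ribosomal, respiratory, mitochondrial ribosomal and proteasome genes, moved by over 1.5 times with single libraries left out, and the cause was not tested. No paired analysis was possible because the animal numbers are not shared between groups. At 4 libraries per group, the wider spread in Dicretin limits what small changes can pass. The fit shares 1 estimate of the spread per gene over all 4 groups. For genes that vary more in Dicretin than in the other groups, p-values may therefore be too small. With only the 2 groups in the fit 4361 genes passed.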
